A study of Mus musculus with 10 samples.

Results

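The genes described here are the ribonuclease A (RNase A) family of the mouse, with the eosinophil-associated ribonucleases (Ear genes) and angiogenin, as measured in macrophages from mammary tumours. Members were chosen by gene symbol: Rnase or Ear followed by 1 digit and an optional letter, within the family, or Ang. The rule then kept at most the 10 loci with the highest count summed over all samples. It found 9 of the 46957 loci of the tables, so the cut at 10 removed none: Rnase2a, Ear2, a single locus that covers Ang and Rnase4 together, Rnase6, Ear1, Ear6, Rnase1, Rnase2b and Rnase9. The choice used symbols and total counts over both treatments and not the difference between treatments, but the family was proposed with the change of Rnase2a in these data already known.

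RNA was sequenced from 10 samples of tumour-associated macrophages. The tumours came from 4T1, a mouse mammary carcinoma line, implanted into mammary fat pads (host strain BALB/cJ) and harvested on day 14. Macrophages were sorted as live CD45+ CD11b+ F4/80+ cells negative for CD8, Ly6C and Ly6G. In 5 samples the mice had received vehicle (PBS), and in 5 samples they had received JHU083, a prodrug of the glutamine antagonist 6-diazo-5-oxo-L-norleucine, at 1 mg/kg from day 7 to day 13. The comparison asks which transcripts of these macrophages differ after glutamine antagonism. The labels do not say that each sample came from a separate mouse, so p-values measure only the spread between these samples.

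RNase A family enzymes are small secreted proteins that cut single-stranded RNA after pyrimidines, and several also act as antimicrobial or chemotactic signals. Cytosolic ribonuclease inhibitor (Rnh1) binds and blocks many of them. In mice the Ear branch expanded by repeated gene duplication, and its members are best known from eosinophil granules. Rnase2a, also named Ear11, and Ear2 are in addition made by macrophages, Rnase2a after exposure to type 2 cytokines such as IL-4.

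Libraries held 11147870 to 14575933 fragments in the vehicle group and 13638381 to 15740701 in the JHU083 group, and the JHU083 libraries were deeper on average, with overlap (exact permutation test, two-sided, p = 0.0238). Levels are given as CPM, fragment counts relative to the scaled library total, and differences as log2 fold changes (JHU083 minus vehicle) from edgeR's quasi-likelihood test, fitted to 12501 loci and adjusted by Benjamini-Hochberg at 0.05. In that fit 18.4% of loci were called higher and 18.3% lower, 2.10% were called higher by at least 1 on the log2 scale, and the median log2 fold change was 0.01. All 9 macrophage markers were tested, 4 rose and 0 fell, and their summed level was 10890 to 13479 CPM with vehicle and 13257 to 16364 CPM with JHU083. Markers of tumour epithelium fell (8 of 8, summed level 284 to 616 CPM with vehicle and 101 to 215 CPM with JHU083), as did 4 of 6 markers of endothelium and fibroblasts (213 to 322 and 82.0 to 136 CPM). In bulk RNA, fewer cells of a type and less RNA per cell cannot be told apart, and the part of these shifts in the results below was not tested.

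Of the 9 family loci, 4 were abundant enough to be tested and 5 were at or near 0. All 4 tested loci rose with JHU083 and 0 fell, beside 18.4% of all tested loci called higher. In all 4 the lowest JHU083 sample lay above the highest vehicle sample, as it did for 11.2% of tested loci, while the reverse held for 0 members and 11.1% of tested loci. Each of the 4 had at least 33 fragments in every vehicle sample, so none entered the test only through its level after treatment. Their median log2 fold change was 1.60, and 2 of the 4 (Rnase2a and Ear2) rose by at least 1 on the log2 scale, beside 2.10% of tested loci.

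**Figure D1:**
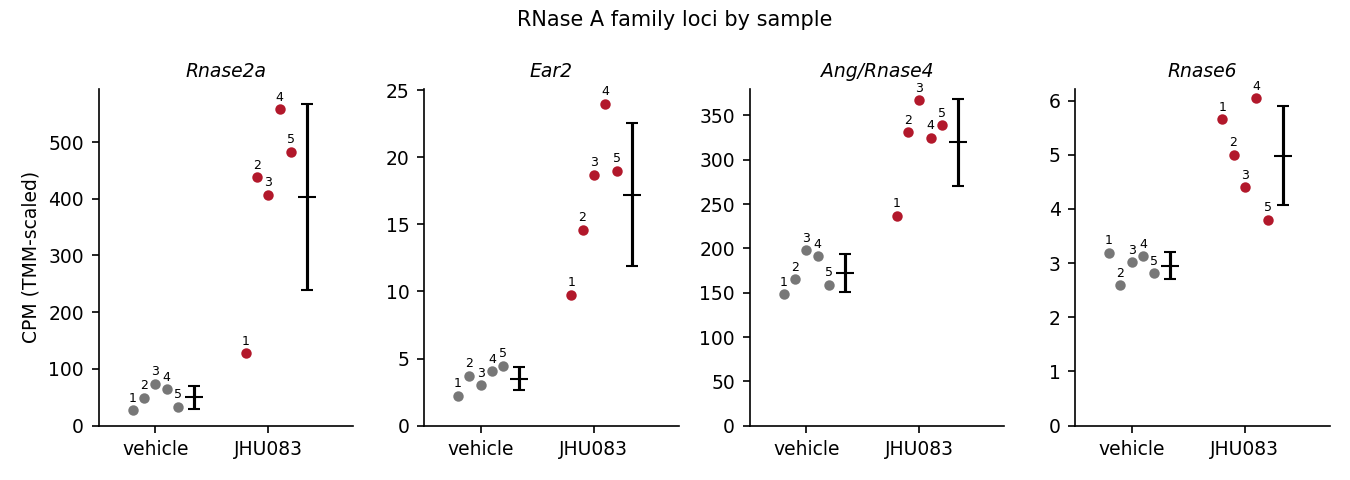
Level of the 4 tested RNase A family loci in each sample, in TMM-scaled CPM on linear axes that start at 0. Points are samples, numbered by replicate, and the bar beside each group is the mean ± SD (n = 5). JHU083 samples lie above all vehicle samples in every panel, and JHU083 replicate 1 is the lowest of its group for Rnase2a, Ear2 and Ang/Rnase4 but not for Rnase6.

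Rnase2a encodes a ribonuclease of the eosinophil-derived neurotoxin type that attracts macrophages. The gene (locus XLOC_012105) lies on chromosome 14 from 51255262 to 51256112 on the minus strand (GENCODE M21, GRCm38). With vehicle, replicates 1 to 5 had 27.8, 49.3, 73.9, 64.7 and 33.4 CPM of Rnase2a. With JHU083, replicates 1 to 5 had 128, 438, 407, 558 and 483 CPM. The groups did not overlap: 4 of the JHU083 samples lay close together, and replicate 1 lay between them and the vehicle samples. The means were 49.8 ± 19.7 CPM (SD, n = 5) with vehicle and 403 ± 164 CPM (SD, n = 5) with JHU083. Rnase2a rose 8.09-fold (6.35 to 10.3 at 1 SE either side), a log2 fold change of 3.02 ± 0.35 (SE) with an adjusted p of 2.54e-05 by edgeR. By size of increase it ranked 5 of the 12501 tested loci. The 2 groups rested on 409 to 980 and 1878 to 7373 Rnase2a fragments per library, and without JHU083 replicate 1 the log2 fold change was 3.24.

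Ear2 is a close relative of Rnase2a that eosinophils and macrophages make. The gene (locus XLOC_011060) lies in a separate group of family genes, at 44102654 to 44103534 on the plus strand of chromosome 14. Vehicle replicates 1 to 5 had 2.24, 3.73, 3.02, 4.08 and 4.46 CPM of Ear2. JHU083 replicates 1 to 5 had 9.75, 14.6, 18.7, 24.0 and 19.0 CPM. Every JHU083 sample was above every vehicle sample, and replicate 1 was the lowest of the JHU083 group here too. The means were 3.51 ± 0.886 and 17.2 ± 5.34 CPM (SD, n = 5 each). Ear2 rose 4.92-fold (4.18 to 5.80 at 1 SE either side), a log2 fold change of 2.30 ± 0.24 with an adjusted p of 1.19e-05 by edgeR, rank 22 by size of increase. The libraries held 33 to 57 Ear2 fragments with vehicle and 143 to 314 with JHU083.

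**Figure D2:**
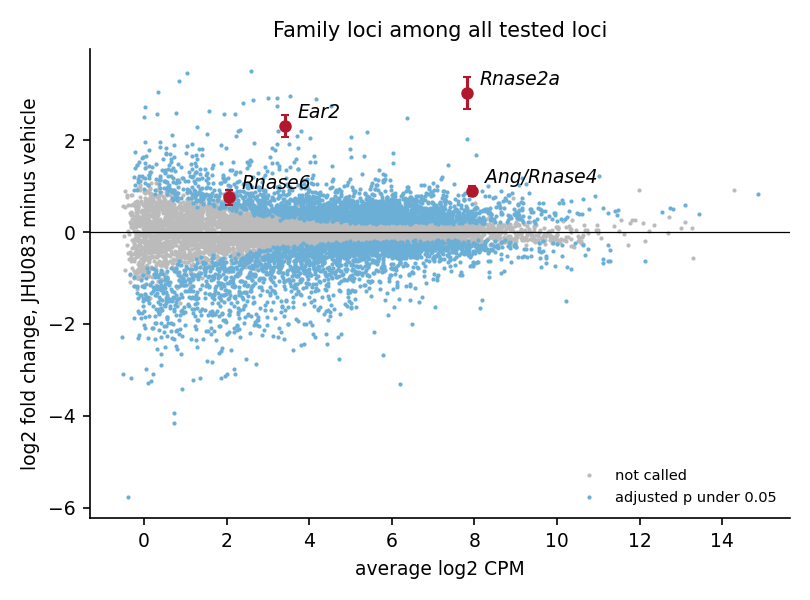
Log2 fold change (JHU083 minus vehicle) against average log2 CPM for the 12501 tested loci. Small points are loci, blue where the adjusted p was under 0.05, and red points with bars are the 4 family loci ± SE. Rnase2a and Ear2 lie at 3.02 and 2.30, and Ang/Rnase4 and Rnase6 at 0.90 and 0.75.

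Rnase2a and Ear2 belong to 1 group of near relatives, which matters for how reads are assigned. Over the coding bases, Rnase2a was 83.8% identical to Rnase2b and 79.8% identical to Ear2. Ear2 was 95.1% identical to Ear1 and 87.7% identical to Ear6, while Rnase2a shared 58.1% with Rnase6 and 49.8% with Ang. Among 141767 transcripts of GENCODE M21, Rnase2a had no 50-base stretch in common with the transcript of another gene. In Ear2, 41.5% of 50-base stretches and 23.4% of 75-base stretches were shared, with Ear1, Ear10, Ear6 (at 50 bases only), Ear-ps2 and Ear-ps9. How the authors' counting treated reads that match several places is not given in the sources used here, so the Ear2 value is uncertain by the share of such reads. The other rows these reads could have gone to held few fragments: Ear1 had 4 and Ear6 had 3 over all 10 libraries, Ear10 had 0, and 9 Ear pseudogene rows had 15 in all. The mice were BALB/cJ, the reference sequences are of another strain, and differences between strains were not examined.

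**Figure D3:**
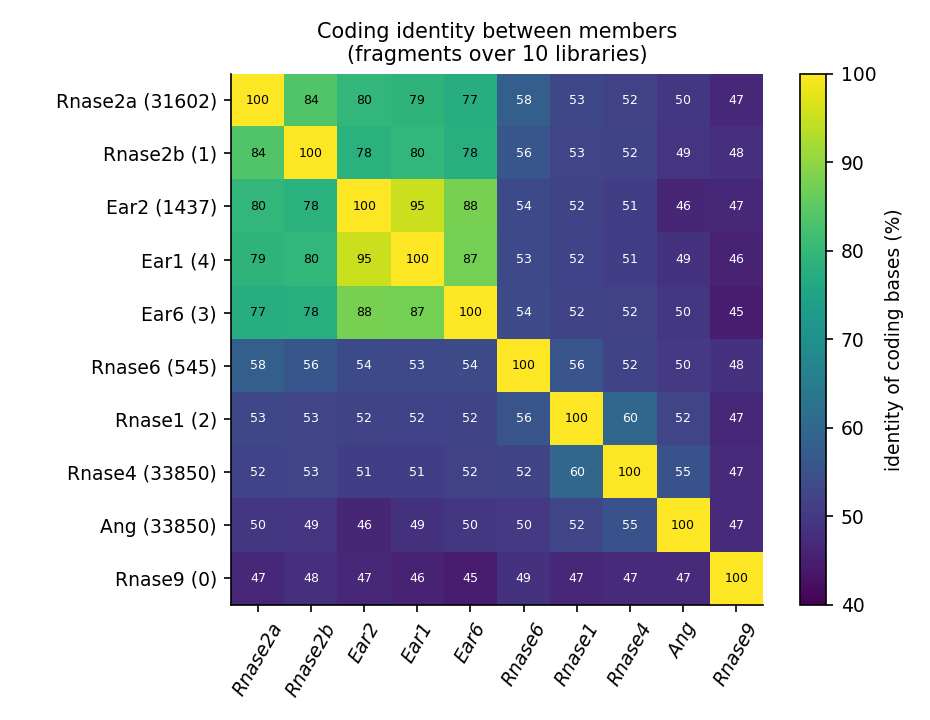
Identity of the coding bases (percent, colour and number in each cell) between the 10 member genes, with the fragments summed over 10 libraries in brackets beside each name; Rnase4 and Ang share 1 count. Rnase2a and Ear2 carry nearly all fragments of a block of 5 near relatives, whose other members Rnase2b, Ear1 and Ear6 have 1, 4 and 3.

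The promoters of these relatives are alike as well, and they are shown because 2 of them belong to the loci that rose most while their near copies had almost no fragments. Each window is the 250 bases before the start site of the RefSeq annotation (GRCm38.p6), 5′ to 3′ on the gene's strand. Capitals mark the 2 longest runs of bases, each 13 bases long, that the windows of Rnase2a, Rnase2b, Ear2, Ear1 and Ear6 all hold.
Rnase2a, chr14:51256113-51256362, minus strand: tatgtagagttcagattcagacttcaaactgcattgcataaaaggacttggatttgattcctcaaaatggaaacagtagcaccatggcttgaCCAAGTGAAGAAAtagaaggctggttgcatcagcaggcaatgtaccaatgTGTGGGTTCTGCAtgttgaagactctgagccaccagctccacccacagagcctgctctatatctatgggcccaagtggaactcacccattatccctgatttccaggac
Rnase2b, chr14:51162010-51162259, plus strand: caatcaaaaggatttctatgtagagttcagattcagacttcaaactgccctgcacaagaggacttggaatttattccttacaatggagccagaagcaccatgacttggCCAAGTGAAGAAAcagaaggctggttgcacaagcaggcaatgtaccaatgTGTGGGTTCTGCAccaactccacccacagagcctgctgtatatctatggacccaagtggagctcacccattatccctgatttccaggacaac
Ear2, chr14:44102404-44102653, plus strand: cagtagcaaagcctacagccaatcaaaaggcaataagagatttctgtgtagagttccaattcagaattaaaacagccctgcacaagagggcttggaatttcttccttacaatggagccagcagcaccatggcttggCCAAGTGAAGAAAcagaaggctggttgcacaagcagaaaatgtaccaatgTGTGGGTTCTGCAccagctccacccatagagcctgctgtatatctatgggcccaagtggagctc
Ear1, chr14:43819640-43819889, minus strand: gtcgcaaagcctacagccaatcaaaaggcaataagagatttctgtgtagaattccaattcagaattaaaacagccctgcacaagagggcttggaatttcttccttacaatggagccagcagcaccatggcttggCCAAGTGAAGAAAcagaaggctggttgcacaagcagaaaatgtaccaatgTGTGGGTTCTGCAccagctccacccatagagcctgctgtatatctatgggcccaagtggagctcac

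The Ear2 and Ear1 windows were 97.6% identical, those of Rnase2a and Rnase2b 78.4%, and those of Rnase2a and Ear2 60.5%. The longest run common to Rnase2a and Rnase2b was 32 bases, that common to Rnase2a and Ear2 was 25 bases, and that common to Ear2 and Ear1 was 197 bases. The run CCAAGTGAAGAAA, searched on both strands, was present in 7 of 32851 promoter windows of the same length, those of Ear1, Ear2, Ear6, Ear10, Rnase2a, Rnase2b and the olfactory receptor gene Olfr1441. It began 158 bases before the start site in Rnase2a and 114 bases before it in Ear2. The run TGTGGGTTCTGCA was present in 5 windows, those of the 5 members compared, beginning 108 bases before the start site in Rnase2a and 64 in Ear2. A STAT6-type palindrome, TTC and GAA with any 4 bases between them, and an AP-1-type motif, TGANTCA, were searched on both strands and matched in none of the windows of the 10 member genes. Over all promoter windows, 5.85% and 6.75% held these motifs. A shared run or the lack of a match describes the letters of these windows only.

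The near copies of Rnase2a and Ear2 and the other low members gave 10 fragments in all. Rnase2b, the member closest to Rnase2a in coding sequence, had 1 fragment, in JHU083 replicate 4. Ear1 had 1 fragment in each of 4 libraries, 1 with vehicle and 3 with JHU083. Ear6 had 1 fragment in each of 3 libraries, 1 with vehicle and 2 with JHU083. Rnase1, the pancreatic type ribonuclease, had 2 fragments in JHU083 replicate 1, and Rnase9, known from the epididymis, had 0 in every library. These 5 members were too low to test, and no difference between treatments was detectable at this depth. A count of 0 allows 3 fragments per library, or 0.196 to 0.261 CPM, for counting error alone.

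Outside the naming rule the tables hold 10 more rows of the family, and none reached more than 3 fragments in a library. Ang2 had 5 fragments over all libraries, Rnase10 and Rnase12 had 4 each and Ang4 had 1. Ang5, Ang6, Ear10, Ear14, Rnase11 and Rnase13 had 0.

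Ang and Rnase4 were counted as 1 locus (XLOC_011138), so their values cannot be told apart. Angiogenin promotes vessel growth and cuts transfer RNA in stressed cells, and Rnase4 prefers to cut after uridine. The genes overlap on the plus strand of chromosome 14, Rnase4 at 51091077 to 51106151 and Ang at 51091150 to 51102009, and have separate coding exons. RefSeq also lists a window for Rnase4 alone, at 51095750 to 51095999, which is not printed. The RefSeq entries of both genes share 1 promoter window, printed here because both can be read from it. The shared window holds neither shared run of the Ear group.
Ang and Rnase4, chr14:51090827-51091076, plus strand: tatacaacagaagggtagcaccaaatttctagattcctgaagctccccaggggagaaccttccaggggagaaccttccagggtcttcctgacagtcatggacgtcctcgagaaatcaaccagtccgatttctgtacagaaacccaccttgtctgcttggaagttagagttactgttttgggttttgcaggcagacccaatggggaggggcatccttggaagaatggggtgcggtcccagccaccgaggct

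Vehicle replicates 1 to 5 had 148, 165, 198, 191 and 159 CPM at Ang/Rnase4. JHU083 replicates 1 to 5 had 237, 331, 367, 325 and 339 CPM. The groups did not overlap, and JHU083 replicate 1 was again the lowest of its group, apart from the other 4. The means were 172 ± 21.3 and 320 ± 49.1 CPM (SD, n = 5 each). The locus rose 1.86-fold (1.72 to 2.01 at 1 SE either side), a log2 fold change of 0.90 ± 0.11 with an adjusted p of 5.46e-05 by edgeR, rank 361 by size of increase. Of the 50-base stretches of Ang, 3.82% were shared outside the locus, with Ang2, which had 5 fragments in all.

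Rnase6 (RNase k6) is an antimicrobial ribonuclease of monocytes and macrophages. Its gene (XLOC_011140) lies between the Ang/Rnase4 locus and Rnase1, at 51123908 to 51132187 on the plus strand of chromosome 14. Vehicle replicates 1 to 5 had 3.19, 2.59, 3.02, 3.13 and 2.82 CPM of Rnase6. JHU083 replicates 1 to 5 had 5.66, 5.00, 4.40, 6.04 and 3.80 CPM. The groups did not overlap, and JHU083 replicate 1 was the second highest of its group, unlike at the other 3 loci. The means were 2.95 ± 0.246 and 4.98 ± 0.911 CPM (SD, n = 5 each). Rnase6 rose 1.68-fold (1.50 to 1.90 at 1 SE either side), a log2 fold change of 0.75 ± 0.17 with an adjusted p of 0.00369 by edgeR, rank 567 by size of increase. It rested on 34 to 47 fragments per vehicle library and 58 to 83 per JHU083 library, and within 2 subsets of 5 samples that differ in how ribosomal loci are listed its log2 fold changes of 0.83 ± 0.28 and 0.66 ± 0.29 did not pass (adjusted p = 0.106 and 0.125 by edgeR).

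Levels of different genes were compared on the deposited FPKM scale, which divides by transcript length. With vehicle, Ang/Rnase4 had 123 FPKM (range 106 to 141) and Rnase2a had 97.6 FPKM (range 54.2 to 146), and their ranges overlapped. Ear2 had 6.41 FPKM (range 4.09 to 8.14) and Rnase6 had 3.16 FPKM (range 2.79 to 3.41), each clear of its neighbour in this order. With JHU083 the order of the first pair switched. Rnase2a had 788 FPKM (range 254 to 1091), Ang/Rnase4 had 228 FPKM (range 171 to 260), and their ranges overlapped only through JHU083 replicate 1. Ear2 had 31.5 FPKM (range 18.1 to 43.8) and Rnase6 had 5.36 FPKM (range 4.08 to 6.48). Among the 12501 tested loci ordered by mean FPKM, Rnase2a ranked 990 with vehicle and 151 with JHU083, and Ear2 ranked 7233 and 2783.

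**Figure D4:**
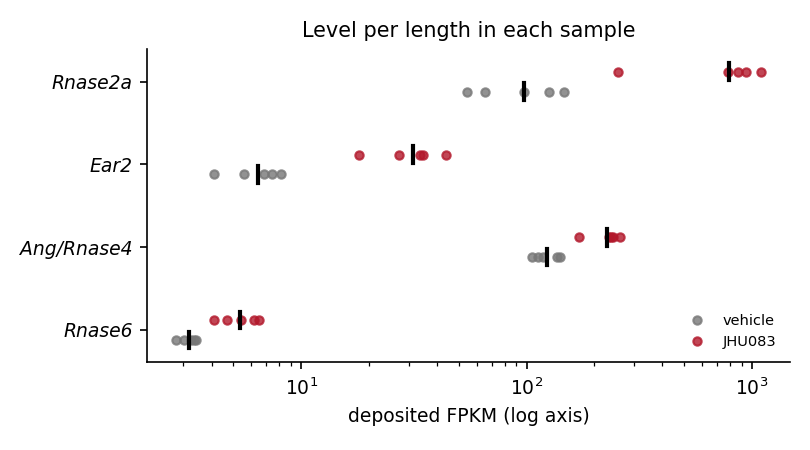
Deposited FPKM of the 4 tested family loci in each sample, on a log axis. Grey points are vehicle samples, red points JHU083 samples, and black ticks the group means (n = 5). Rnase2a has a mean of 97.6 FPKM with vehicle, below Ang/Rnase4 at 123, and of 788 FPKM with JHU083, above Ang/Rnase4 at 228.

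The family's summed level was 228 ± 41.0 CPM (SD, n = 5, range 181 to 278) with vehicle and 745 ± 210 CPM (SD, n = 5, range 381 to 914) with JHU083. Its make-up shifted from Ang/Rnase4 to Rnase2a. Ang/Rnase4 held 76.0% ± 4.50 (SD, n = 5) of the family's fragments with vehicle and 45.2% ± 10.2 with JHU083. Rnase2a held 21.1% ± 4.92 and 51.7% ± 10.7, with a JHU083 range of 33.6% to 61.1% and replicate 1 at its lower end. Ear2 held 1.56% and 2.33% on average, and Rnase6 1.33% and 0.757%. These shares are of fragments and not per length.

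The members did not rise by the same amount. All 6 pairs of tested loci were compared through the log2 ratio of their CPM in each sample, with an exact two-sided permutation test over 252 divisions of the samples and p-values adjusted over the 6 pairs. The smallest p this design allows is 0.00794. The ratio of Ang/Rnase4 to Rnase2a changed by -2.07 with JHU083 on the log2 scale, with an exact permutation p of 0.00794 (adjusted 0.0159), and the groups did not overlap. The ratio of Ang/Rnase4 to Ear2 changed by -1.38 (exact permutation p = 0.00794, adjusted 0.0159), with no overlap. Both Ear relatives therefore rose by more than the Ang/Rnase4 locus. Ear2 also rose by more than Rnase6, by 1.53 (exact permutation p = 0.00794, adjusted 0.0159), with no overlap. Rnase2a rose by more than Rnase6 by 2.22 (exact permutation p = 0.0159, adjusted 0.0238), although these ratios overlapped between groups. Rnase2a against Ear2 gave a difference of 0.68 (exact permutation p = 0.0952, adjusted 0.114), and Ang/Rnase4 against Rnase6 gave 0.15 (exact permutation p = 0.524, adjusted 0.524), neither past the threshold.

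Within the groups, Rnase2a and Ang/Rnase4 varied together from library to library. Over 10 samples, after removing each group's mean, log2 CPM of Rnase2a and Ang/Rnase4 had a Pearson r of 0.92, and of 0.83 without JHU083 replicate 1. In the vehicle group both loci put the 5 samples in the same order, with replicate 1 lowest and replicate 3 highest, while Ear2 was highest in vehicle replicate 5. The r of Rnase2a with Ear2 was 0.69 (0.42 without JHU083 replicate 1), and that of Ang/Rnase4 with Ear2 was 0.62 (0.29 without it), so both rest in large part on that library. Rnase6 had r between -0.37 and -0.24 with the other 3, and between -0.16 and 0.05 without JHU083 replicate 1. These values describe loci measured in the same libraries and carry no test.

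Among 10127 tested loci with an average log2 CPM of at least 2, those whose deviations from the group means were most like a member's were named by rule, 3 for each member, over the same 10 samples. For Rnase2a they were Msx3 (r = 0.99), Tmem26 (r = 0.98) and Fcrlb (r = 0.96). For Ang/Rnase4 they were Fcna (r = 0.99), Gpt2 (r = 0.96) and Msx3 (r = 0.95), so Msx3 stood on both lists. For Ear2 they were Rarres2 (r = 0.91), Retnla (r = 0.90) and Pgf (r = 0.90), and for Rnase6 Cyp27a1 (r = 0.89), Dlgap5 (r = 0.89) and Gm15500 (r = 0.87). Each r is among the highest of 10127 over only 10 samples, so it is high in part by selection, and it carries no test. Without JHU083 replicate 1 the r of these pairs ran from 0.81 (Ear2 with Retnla) to 0.98 (Ang/Rnase4 with Fcna). The loci named had treatment effects of either sign. Fcrlb had a log2 fold change of -0.85 (adjusted p = 0.00136 by edgeR) and Msx3 one of -0.42 (adjusted p = 0.514), while Retnla rose with Ear2 by 2.90 (adjusted p = 7.52e-06).

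Neighbouring genes on chromosome 14 are given beside the members. Family genes lie there in 2 groups, one of 285 kb that holds Ear1 and Ear2 and one of 915 kb that holds the other 8 member genes. Within 100 kb of the second group, 6 of 35 other loci were tested, of which 1 rose and 2 fell, with a median log2 fold change of -0.24. Over all tested loci 18.4% rose and 18.3% fell, so these few calls show nothing particular to the neighbours. The risen locus was Zfp219 (0.32 ± 0.10, adjusted p = 0.0225 by edgeR), and the fallen ones were Pnp (-0.65 ± 0.08) and Apex1 (-0.49 ± 0.09). Around Ear1 and Ear2, 1 of 22 other loci was tested. That locus, the predicted gene Gm8113, had 1.70 ± 0.635 CPM with vehicle and 7.93 ± 3.47 CPM with JHU083 (SD, n = 5 each), with no overlap. Its log2 fold change was 2.22 ± 0.33 (adjusted p = 0.000202 by edgeR), close in size to that of Ear2.

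Eosinophils make Ear proteins, so their markers are given beside the Rnase2a and Ear2 results. The list held 8 genes, of which 5 were tested, 2 rose and 0 fell, beside 18.4% of all tested loci called higher and 18.3% called lower. The genes that rose were Alox15 (log2 fold change 1.37, adjusted p = 0.000173 by edgeR), a lipoxygenase that type 2 activated macrophages also make, and Siglecf (0.89, adjusted p = 0.0115). Of the defining granule genes, Prg3 (major basic protein 2) was at 0 in all 10 libraries, and Epx (eosinophil peroxidase) had 0 to 5 fragments per library. Prg2 (major basic protein) was present in all 10 libraries with 8 to 68 fragments, at a mean of 1.27 CPM with vehicle and 2.27 CPM with JHU083. Its log2 fold change was 0.81 (adjusted p = 0.196 by edgeR), and Ccr3, the eotaxin receptor, one of 0.29 (adjusted p = 0.659). Alox15, also on the list of type 2 activation, had 7.26 CPM with vehicle and 18.8 CPM with JHU083 on average.

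The summed level of the 8 eosinophil genes was 14.2, 17.3, 23.2, 12.7 and 11.7 CPM in vehicle replicates 1 to 5. It was 29.0, 26.8, 25.0, 49.2 and 27.3 CPM in JHU083 replicates 1 to 5. The groups did not overlap, with means of 15.8 and 31.5 CPM. Alox15 made up 7.26 and 18.8 CPM of these means, and Siglecf 3.19 and 5.91 CPM. Every gene of the list except Alox15 overlapped between groups, and Epx had a lower mean with JHU083 (0.178 and 0.0558 CPM). Within the JHU083 group, replicate 4 had the highest sum and the highest Rnase2a level, and replicate 1 had the second highest sum and the lowest Rnase2a level. The part of eosinophil RNA in the rise of Rnase2a and Ear2 was not tested.

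**Figure D5:**
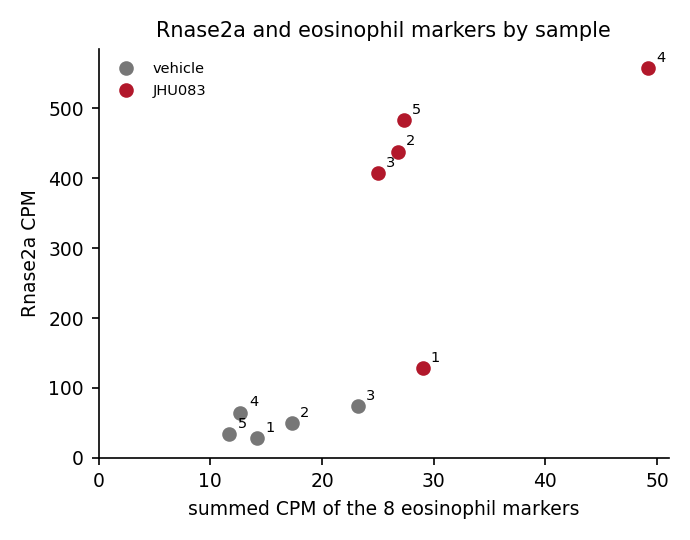
Rnase2a level (CPM) against the summed CPM of the 8 eosinophil genes (Epx, Prg2, Prg3, Siglecf, Ccr3, Il5ra, Cebpe and Alox15) in each sample, on linear axes from 0. Grey points are vehicle and red points JHU083 samples, numbered by replicate. The sums are 11.7 to 23.2 CPM with vehicle and 25.0 to 49.2 CPM with JHU083, and Rnase2a lies at 27.8 to 73.9 and 128 to 558 CPM. Alox15 alone averages 7.26 CPM with vehicle and 18.8 CPM with JHU083.

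Markers of other cell types were described in the same way, and their counts also stand beside 18.4% of tested loci called higher and 18.3% called lower. The sort took CD11b+ F4/80+ cells negative for CD8, Ly6C and Ly6G, and none of these markers was stated to exclude eosinophils. How far the sort removed other cell types was not tested. Alveolar macrophages are rich in Ear transcripts; of their 8 markers 5 were tested, 2 rose (Chil3, log2 fold change 2.08, and Siglecf) and 0 fell, Marco was at 0 in every library, and the summed level was 9.71 to 18.0 CPM with vehicle and 17.9 to 56.2 CPM with JHU083. Chil3, also on the list of type 2 activation, made up 4.94 of the mean sum of 13.9 CPM with vehicle and 20.8 of 34.6 CPM with JHU083. Of 10 neutrophil markers 5 were tested, 1 rose (Csf3r, 0.53) and 2 fell (S100a9, -2.18, and S100a8, -1.40), with summed levels of 93.0 to 104 and 95.7 to 146 CPM. Of 7 mast cell and basophil markers 5 were tested, 1 rose (Cpa3) and 1 fell (Mcpt4). Of 6 dendritic cell markers 5 were tested and 1 rose (Cd209a, 2.09), with summed levels of 8.67 to 11.0 and 12.8 to 26.3 CPM. Of 8 lymphocyte markers only Cd4, which macrophages can also express, was tested, and it rose (1.12). The part of these shifts in the family's rise was not tested.

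The same shares over all tested loci, 18.4% higher and 18.3% lower, stand beside the counts on the lists that follow. Of 5 genes for proteins that bind the family, the RNase inhibitor and receptors, 0 rose and 1 fell. Rnh1 had 244 CPM with vehicle and 254 CPM with JHU083 (log2 fold change 0.06, adjusted p = 0.705 by edgeR), and Plxnb2, the plexin that angiogenin binds, had 305 and 335 CPM (0.14, adjusted p = 0.104). The gene that fell was Sdc1, a heparan sulphate proteoglycan (-0.97, adjusted p = 0.00303 by edgeR). Whether its fall is linked to that of the tumour epithelium markers was not tested.

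Ribonucleases of other enzyme families were listed for comparison. Of 20 such genes 19 were tested, 2 rose and 4 fell, with a median log2 fold change of -0.01. Pld3, an exonuclease of lysosomes, rose by 0.53 (adjusted p = 0.000809 by edgeR). Rnaseh2c (-0.53) and Rnaseh2a (-0.48), subunits of the enzyme that removes ribonucleotides from DNA, fell.

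Of 16 genes of RNA sensing, all tested, 3 rose and 5 fell, with a median of -0.04. The share of risen genes was near that of all tested loci. The 4 largest called changes were those of Tlr7 (1.14, adjusted p = 4.78e-06 by edgeR) and Tlr8 (0.92, adjusted p = 0.00180), endosomal RNA receptors, and of the interferon-induced genes Oas3 (-1.01, adjusted p = 3.87e-05) and Irf7 (-0.94, adjusted p = 8.84e-05). Tlr3, an endosomal receptor for double-stranded RNA named here after its value was seen, had a log2 fold change of 0.01 (adjusted p = 0.970).

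Of 17 genes of type 2 macrophage activation, all tested, 9 rose and 0 fell, with a median log2 fold change of 0.65 beside 0.01 over all tested loci. The largest increases were those of Retnla (2.90), a secreted resistin-like protein, Chil3 (2.08), a chitinase-like protein, Ccl17 (1.79), a chemokine, and Klf4 (1.45), a transcription factor. The genes of this list that were not called are named here after their values were seen. They were Arg1 (0.26), Ccl24 (0.02), Il4ra (0.01), Stat6 (0.10), Pdcd1lg2 (-0.29), Clec10a (0.27), Cd163 (0.42) and Il13ra1 (-0.12). Of 9 genes for lysozymes and other secreted antimicrobial proteins 5 were tested, 3 rose and 1 fell. Lyz1 (1.47), Lyz2 (0.58) and Wfdc17 (0.37) rose, and Lcn2 (-1.49) fell. These lists were chosen with earlier results of the data known.

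The tables differ in 1 respect that the treatment labels do not explain. In 3 vehicle and 2 JHU083 samples the loci Rn18s-rs5 and Gm42418, which hold ribosomal RNA sequence, were listed at 0, while they took 2.87% to 5.59% of fragments in the other 5. Every tested member had a higher mean with JHU083 within both sets of samples. Among the samples listing them at 0, log2 fold changes were 2.45 for Rnase2a, 1.80 for Ear2, 0.82 for Ang/Rnase4 and 0.83 for Rnase6. Among the other 5 samples they were 3.27, 2.86, 0.93 and 0.66. Rnase2a, Ear2 and Ang/Rnase4 passed in both sets, and Rnase6 passed in neither (adjusted p = 0.106 and 0.125 by edgeR). The set listing the ribosomal loci at 0 holds JHU083 replicates 1 and 3. Replicate 1 was the lowest JHU083 sample at Rnase2a, Ear2 and Ang/Rnase4. Differences between the sets were not tested, and they cannot be told apart from the place of that sample.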

How the data were processed

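RNA-seq of sorted tumour-associated macrophages (5 vehicle and 5 JHU083 samples) was analysed from 1 deposited table per sample. Polyadenylated RNA was made into paired-end libraries with random priming, per the labels' protocols. The submitters' processing notes name bcl2fastq 2.17.1.14, FastQC 0.11.2, TopHat2 2.1.1 and the build GRCm38; the counting program, its strand and multi-read settings and the annotation are not given in the sources used here. Per the file headers the authors deposited raw counts, but the values are not whole, so their unit was classed under expected counts. They are whole multiples of a step of 0.888 to 1.17 per sample, and division by the step gave whole fragments (within 0.1) for at least 99.9% of positive values, which were rounded and tested. The second deposited column was taken as FPKM, from its ratio to the counts and the gene lengths, and served for comparing levels between genes. Encoded symbols were decoded, and 1060 loci list more than 1 symbol.

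Loci were filtered with filterByExpr, scaled by TMM and tested with edgeR 4.0.16 (quasi-likelihood, no covariate) in R 4.3.3, with Benjamini-Hochberg adjustment at 0.05. The standard error is the log2 fold change over the square root of F. The fit was tested on simulated data. Alternatives used DESeq2 1.42.0, limma 3.58.1 (voom, and trend on log2(FPKM + 0.1)), other scaling, filters and loci, subsets of samples, a replicate block and leaving out each sample. Exact permutation tests used scipy 1.17.1. Log2 CPM has a prior count of 2. Members' identities were computed on coding bases of GENCODE M21 with Biopython 1.88, and promoters came from RefSeq (GRCm38.p6), where all 10 member genes matched. Strand was not stated, so overlapping antisense transcripts cannot be told apart. Named by rule were every family row, at most 4 called genes per list with the largest change, the eosinophil defining markers and the 3 loci most alike to each tested member. The members and lists were chosen with earlier results of these data known. Some genes of the lists are counted but not reported here by name.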

Additional observations from a re-analysis of the deposited data

Results flagged for a closer look

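In each of 8 groups of 5 values (4 tested members, 2 treatments, log2 CPM), the gap between the extreme sample and its nearest neighbour was set against the whole range by Dixon's criterion, which chance alone passes in about 5% of groups. It marked JHU083 replicate 1 at 2 members. Rnase2a had 7.00 log2 CPM there, beside 8.67 to 9.13 in the other 4 JHU083 samples. Ang/Rnase4 had 7.89 log2 CPM, beside 8.35 to 8.52. These values rest on 1878 and 3475 fragments. Both lie above all vehicle samples, and without this sample the log2 fold changes were 3.24 and 0.99.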

How the results depend on the processing

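Under 22 alternatives the 4 tested members kept their direction. Rnase2a ranged from 2.45 to 3.27, Ear2 from 1.80 to 2.86 and Ang/Rnase4 from 0.81 to 0.99 (log2 fold change), all called. Rnase6 ranged from 0.66 to 0.84 and lost its call in 2 subsets: 0.83 (adjusted p = 0.106) in the samples that list Rn18s-rs5 and Gm42418 at 0, and 0.66 (adjusted p = 0.125) in the others. In the first subset 532 loci were higher and 586 lower, in the second 1274 higher and 1545 lower, beside 2296 and 2293 over all 10 samples. Each subset holds 5 samples, and the first holds JHU083 replicate 1. Scaling by library totals moved the median of all loci from 0.01 to -0.07 and the split to 1564 higher and 3141 lower. Leaving out each sample gave 1823 to 2895 loci higher and 1899 to 2929 lower, 4 members higher in every case and 0 lower, with ranges of 2.86 to 3.24 for Rnase2a, 2.15 to 2.45 for Ear2, 0.84 to 0.99 for Ang/Rnase4 and 0.68 to 0.84 for Rnase6 (largest adjusted p 0.0126 by edgeR).

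With the replicate number as a block, log2 fold changes were 2.95, 2.27, 0.89 and 0.74 for Rnase2a, Ear2, Ang/Rnase4 and Rnase6, all called, and 1612 loci were higher and 1757 lower. Over all tested loci, same-numbered samples did not deviate together (mean correlation of deviations -0.193, between -0.569 and 0.0911), so the numbers were not taken as pairs. At Rnase2a, Ear2 and Ang/Rnase4, replicate 1 was the lowest sample in both groups, and the block lowered the SE from 0.35 to 0.21 for Rnase2a and from 0.24 to 0.15 for Ear2. Depth limits the 5 low members, and Rnase6 and Ear2 rest on the fewest fragments of the tested ones.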
